A study of Mus musculus with 4 samples.

Results

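The miR-34 and miR-449 family is the group of 7 mature miRNA names taken by exact name from a table of 1900 names: mmu-miR-34a-5p, mmu-miR-34a-3p, mmu-miR-34b-5p, mmu-miR-34b-3p, mmu-miR-34c-5p, mmu-miR-34c-3p and mmu-miR-449a-5p (mmu, for mouse, is left off below where the name is repeated). The table counts small RNA recovered by immunoprecipitation of Argonaute2 (AGO2), the protein that carries mature miRNAs to their target RNAs, from fresh olfactory bulb tissue of C57BL/6 mice. The GFP-AGO2 group (n = 2 libraries, numbered 1 and 3) came from mice given LV.PGK.GFP-AGO2, a vector whose name puts GFP-fused AGO2 behind the PGK promoter, which is active in most cell types. The Control group (n = 2, numbered 1 and 3) came from sham-injected mice that received no vector. Tissue of both groups was taken 8 weeks after injection. The series text names newborn neurons of the bulb as the cells of interest. Neither the antibody nor the age of the mice is given in the sources used here. Whether Control RNA was bound to endogenous AGO2 or was carry-over of the procedure is therefore unknown. The labels do not tie replicate libraries to separate animals, and the p-values below cover only the spread between libraries, part or all of which could be technical.

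MiRNAs of this family recognise target RNAs mainly through the seed, bases 2 to 8 of the mature strand, and the 5p arms of miR-34 and miR-449 carry the same seed. The miR-34 genes are known as targets of the p53 transcription factor and as brakes on cell division. The miR-34b/c and miR-449 genes are known for their high expression in multiciliated cells, such as airway epithelium and the ependyma that lines the brain ventricles, where they are needed for making cilia. MiR-34a is also expressed in neurons.

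RefSeq (GRCm38.p6) mature sequences were matched for 6 of the 7 members, all but miR-34c-5p. The seed-sharing arms are shown first, with the seed in capitals, because the shared letters define the family.
miR-34a-5p: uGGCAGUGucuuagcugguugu
miR-34b-5p: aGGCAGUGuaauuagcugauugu
miR-449a-5p: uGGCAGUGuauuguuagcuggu
miR-449c-5p: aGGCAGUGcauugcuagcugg
These 4 names were the only ones with this seed among the 1679 mature entries that were searched. Counted position by position from the 5′ end, seed included, miR-34a-5p matches miR-449a-5p at 15 of 22 bases and miR-34b-5p at 11 of 22. This count allows no gaps and misses like stretches that are shifted along the strand, so it does not measure likeness outside the seed. MiR-449c-5p is no member and is given as the remaining arm with that seed among the entries searched. Like miR-34c-5p, miR-449b had no entry there, so the seeds of both were not checked.

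The opposite arms, shown because one of them was counted more often than its 5p partner, have other seeds.
miR-34b-3p: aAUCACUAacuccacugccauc
miR-34c-3p: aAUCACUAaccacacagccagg
miR-34a-3p: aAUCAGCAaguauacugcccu
MiR-34b-3p and miR-34c-3p share a seed that no other entry searched has, and match at 17 of 22 bases. The Mir34b hairpin is shown with both mature arms in capitals, the 5p arm first.
Mir34b hairpin: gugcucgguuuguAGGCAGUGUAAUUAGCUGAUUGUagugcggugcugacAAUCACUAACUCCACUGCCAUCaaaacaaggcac

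The members come from 3 places in the mouse genome (mm10, the build of the deposited coordinates, read against GENCODE M21). MiR-34a-5p lies at chr4:150068473-150068494 and miR-34a-3p at chr4:150068517-150068537, on the plus strand outside any other annotated gene. MiR-34c-5p (chr9:51103076-51103098) and miR-34b-3p (chr9:51103574-51103595) lie on the minus strand of chromosome 9, within an intron of Btg4, which runs on the opposite strand. The Mir34b and Mir34c hairpins are 451 bases apart and are known to come from a shared primary transcript. MiR-449a-5p (chr13:113037549-113037570, plus strand) lies in an intron of Cdc20b on the same strand. No member has more than 1 position in the table or overlaps another miRNA name.

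The libraries held 1858354 to 2809758 miRNA counts in GFP-AGO2 and 673916 to 1006861 in Control. Of these the 7 members together gave 87 to 229 counts a library, so counting error is large for most of them. Levels are given as CPM, counts per 1000000 counts of a library size adjusted by edgeR's trimmed mean of M-values (TMM). The mature forms are 21 to 23 bases long, so CPM was not divided by length. Neuron-enriched miRNAs were present in every library, at 2.25% to 2.48% of the counts in GFP-AGO2 and 1.8% to 1.99% in Control. A list of 14 epithelial and olfactory sensory miRNAs took 2.61% and 5.1% of the counts in the GFP-AGO2 libraries, against 23.9% and 23.4% in the Control libraries.

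MiR-34c-5p (mmu-miR-34c-5p) was the most abundant member in each of the 4 libraries. It had 28.9 and 77.5 CPM in GFP-AGO2 replicates 1 and 3, from 86 and 158 counts, against 157 and 99.05 CPM in Control replicates 1 and 3, from 151 and 60 counts. Both GFP-AGO2 libraries lay below both Control libraries, and the GFP-AGO2 libraries differed more from each other than GFP-AGO2 replicate 3 did from Control replicate 3. The log2 fold change of GFP-AGO2 over Control was -1.29 (SE 0.53), and it did not pass edgeR's quasi-likelihood test with Benjamini-Hochberg adjustment over all 457 names tested (adjusted p = 0.119, threshold 0.05). Over its alternatives the adjusted p ran between 1.94e-06 and 0.366. It was under the threshold with DESeq2 (-1.30, adjusted p = 0.0492), with no filter on low counts (-1.06, adjusted p = 0.0085) and without GFP-AGO2 replicate 3 (-2.15). Without GFP-AGO2 replicate 1 the log2 fold change was -0.74. In immunoprecipitates of bulk tissue, fewer cells of a type, less RNA per cell and a difference in the RNA recovered cannot be told apart.

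**Figure D1:**
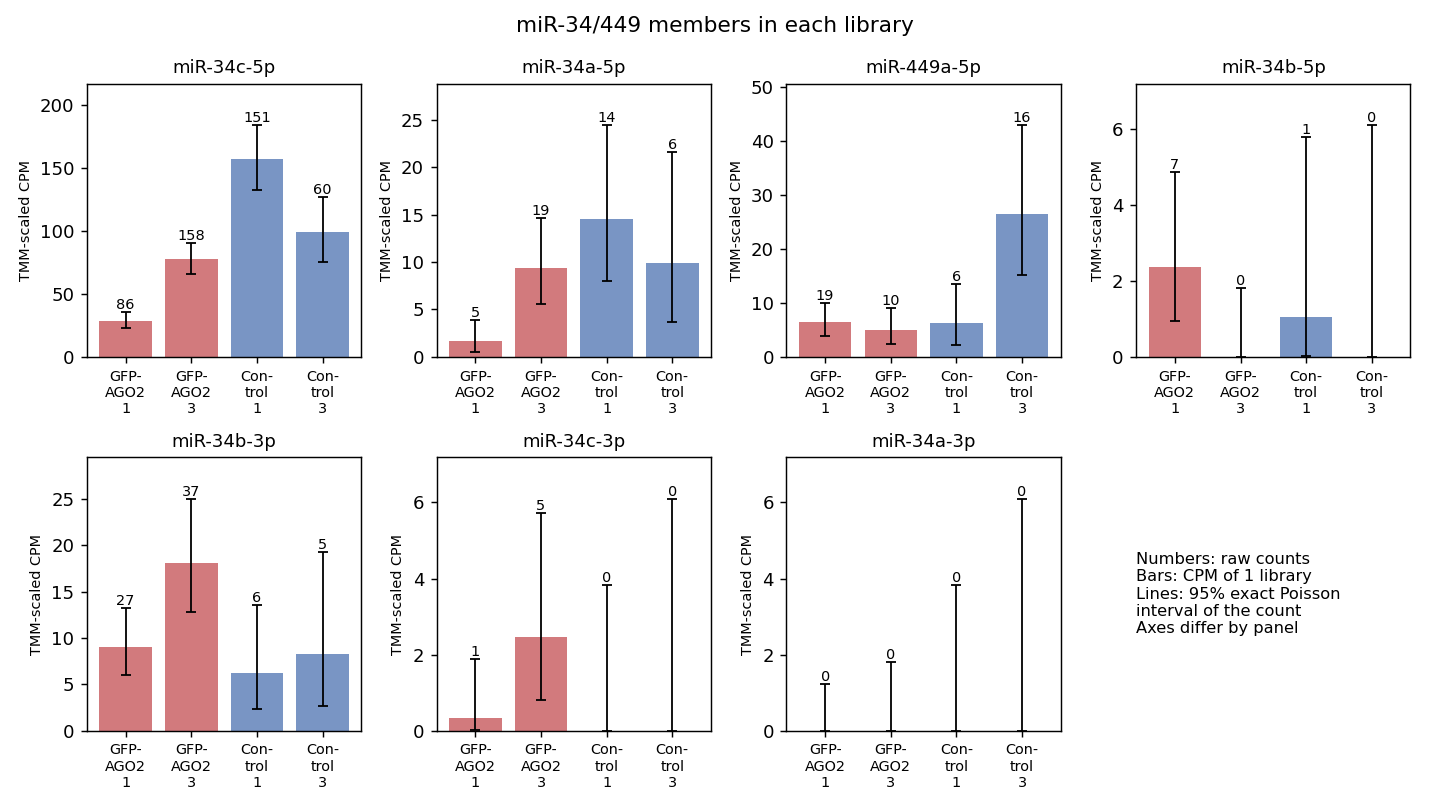
TMM-scaled CPM of each member (vertical axes, one panel per member with its own scale) in the GFP-AGO2 and Control libraries; bars are single libraries, lines the 95% exact Poisson interval of the count, and printed numbers the raw counts. MiR-34c-5p has 28.9 and 77.5 CPM in GFP-AGO2, against 157 and 99.05 CPM in Control, while the highest value of any other member is 26.4 CPM, of miR-449a-5p in Control replicate 3.

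MiR-34a-5p (mmu-miR-34a-5p), made from its own gene, was scarce. It had 1.68 and 9.32 CPM in GFP-AGO2 replicates 1 and 3, against 14.6 and 9.90 CPM in Control replicates 1 and 3. These values rest on 5, 19, 14 and 6 counts. The GFP-AGO2 libraries lay below the Control libraries, replicate 3 of the GFP-AGO2 group by less than the counting interval of either value (5.61 to 14.6 CPM against 3.63 to 21.6 CPM in Control replicate 3). With CPM on total counts alone the groups overlapped, at 1.78 and 10.2 CPM in GFP-AGO2 against 13.9 and 8.90 CPM in Control. The log2 fold change was -1.22 (SE 0.93) and did not pass the edgeR test (adjusted p = 0.362, range over the alternatives 0.0875 to 0.804). Leaving out GFP-AGO2 replicate 3 moved it to -2.83, leaving out GFP-AGO2 replicate 1 to -0.41, and leaving out Control replicate 1 to -0.86. Its 3p arm, miR-34a-3p, had no count in any library, which allows up to 1.01 and 1.47 CPM in the GFP-AGO2 libraries and 3.12 and 4.95 CPM in the Control libraries at 3 counts.

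MiR-34b-3p (mmu-miR-34b-3p), from the hairpin next to that of miR-34c, stood on the other side. It had 9.09 and 18.2 CPM in GFP-AGO2 replicates 1 and 3, against 6.24 and 8.25 CPM in Control replicates 1 and 3. Both GFP-AGO2 libraries were above both Control libraries, but the Control values come from 6 and 5 counts. The log2 fold change was 0.91 (SE 0.64) and did not pass the edgeR test (adjusted p = 0.317, range over the alternatives 0.225 to 0.833). It was 0.35 without GFP-AGO2 replicate 3.

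Among the 3 tested members none was called higher or lower, where 34.4% of all tested names were called in either direction (17.3% higher and 17.1% lower). In this fit none of the 3 had an unadjusted p under 0.05, and DESeq2 called miR-34c-5p alone. MiR-34c-5p and miR-34a-5p had both GFP-AGO2 libraries below both Control libraries, as had 35.2% of all tested names, and miR-34b-3p had both above, as had 36.8%. With 3 members, these counts lie near the background.

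**Figure D2:**
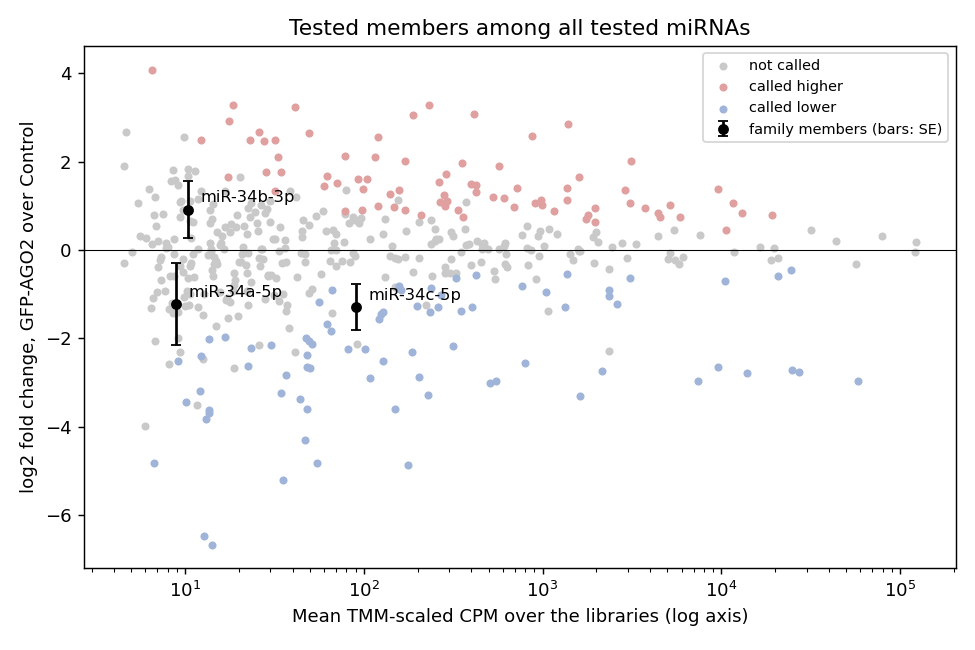
Log2 fold change of GFP-AGO2 over Control (vertical axis) against mean TMM-scaled CPM over the libraries (horizontal log axis) for the 457 tested names, coloured by the edgeR call; black points with SE bars are the 3 tested members. MiR-34c-5p and miR-34a-5p lie at -1.29 and -1.22 and miR-34b-3p at 0.91, all among names that were not called.

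The remaining members did not pass the filter on low counts, which asks for a level of 6.98 CPM on total counts in at least 2 libraries. MiR-449a-5p reached it in 1 library, although its mean level was above that of 2 tested members. MiR-449a-5p (mmu-miR-449a-5p), the member from the Cdc20b intron, had 6.39 and 4.91 CPM in GFP-AGO2 replicates 1 and 3, against 6.24 and 26.4 CPM in Control replicates 1 and 3. The groups overlapped, and Control replicate 3 was the high library, on 16 counts. With no filter on low counts its log2 fold change was -1.20 (edgeR adjusted p = 0.316). MiR-34b-5p had 7 counts in GFP-AGO2 replicate 1 and none in replicate 3, against 1 count in Control replicate 1 and none in Control replicate 3. MiR-34c-3p had 1 and 5 counts in the GFP-AGO2 libraries, or 0.337 and 2.45 CPM, and none in the Control libraries, where 3 counts would be 3.12 and 4.95 CPM. Control levels of miR-34c-3p like those in GFP-AGO2 could therefore have gone uncounted at this depth. Of the other arms of the miR-449 hairpins, miR-449c-5p had 9 counts in GFP-AGO2 replicate 3 and none elsewhere, and miR-449a-3p, miR-449b and miR-449c-3p had no count.

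By mean level, the order in GFP-AGO2 was miR-34c-5p at 53.2 ± 34.4 CPM, miR-34b-3p at 13.6 ± 6.41, miR-449a-5p at 5.65 ± 1.05 and miR-34a-5p at 5.5 ± 5.4 (SD, n = 2). In Control it was miR-34c-5p at 128 ± 41 CPM, miR-449a-5p at 16.3 ± 14.3, miR-34a-5p at 12.2 ± 3.29 and miR-34b-3p at 7.25 ± 1.43 (SD, n = 2). In both groups the miR-34c-5p libraries lay above every library of the next member. The libraries of miR-449a-5p and miR-34a-5p overlapped in both groups, so these neighbours cannot be ordered. MiR-34b-3p likewise overlapped miR-34a-5p in GFP-AGO2 and miR-449a-5p in Control. Adapter ligation favours some small RNA sequences over others, so levels of different miRNAs compare only roughly. Among the 1106 names with a count, miR-34c-5p ranked 205th by mean CPM and miR-449a-5p, miR-34b-3p and miR-34a-5p ranked 388th, 397th and 419th.

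The arm that was counted most differed between the neighbouring genes in all libraries with counts. Of the miR-34c hairpin's counts, the 5p arm made up 98.9% (86 of 87) and 96.9% (158 of 163) in GFP-AGO2 replicates 1 and 3, against 100% in both Control libraries (151 of 151 and 60 of 60). Of the miR-34b hairpin's counts, the 5p arm made up 20.6% (7 of 34) and 0% (0 of 37) in GFP-AGO2, against 14.3% (1 of 7) and 0% (0 of 5) in Control. The 3p arm, whose sequence is shown above beside its partner, thus gave most counts of Mir34b in each library. The difference between groups was -2.11 percentage points for miR-34c and 3.15 for miR-34b, with exact two-sided permutation p = 0.333 and p = 1.0. The smallest p that 2 libraries against 2 allow is 0.333. The miR-34b difference changed sign when GFP-AGO2 replicate 1 or Control replicate 3 was left out, at -7.14 and -3.99 points. The counting intervals are wide, at 8.70% to 37.9% for GFP-AGO2 replicate 1 and 0.361% to 57.9% for Control replicate 1 (95% exact Clopper-Pearson).

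Because miR-34c-5p and miR-34b-3p come from the same transcript but stood on opposite sides, their proportion was computed, a choice made after their values were seen. MiR-34c-5p made up 76.1% (95% exact interval 67.2 to 83.6) and 81.0% (74.8 to 86.3) of their joint counts in GFP-AGO2 replicates 1 and 3. It made up 96.2% (91.9 to 98.6) and 92.3% (83.0 to 97.5) in Control replicates 1 and 3. The separation of the groups follows from the choice of the pair, so no test of it is given. The proportion does not depend on library scaling, but its Control values rest on 6 and 5 counts of miR-34b-3p, and intervals cover counting error only, since PCR copies are counted as separate reads.

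**Figure D3:**
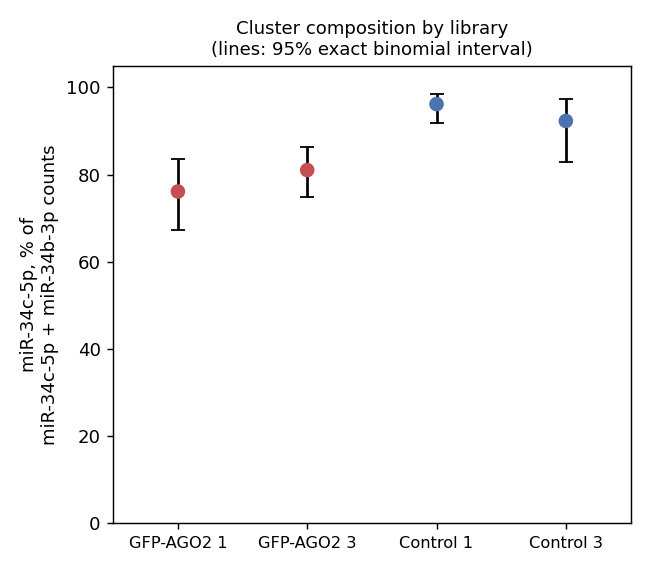
MiR-34c-5p as a percent of the summed miR-34c-5p and miR-34b-3p counts (vertical axis) in each library, GFP-AGO2 in red and Control in blue; lines are 95% exact binomial intervals. The GFP-AGO2 libraries sit at 76.1% and 81.0%, below the Control libraries at 96.2% and 92.3%.

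Summed over the 7 members, the family made up 0.00516% (95% exact interval 0.00436 to 0.00607) and 0.0123% (0.0108 to 0.0140) of the miRNA counts in GFP-AGO2 replicates 1 and 3. In Control replicates 1 and 3 it made up 0.0177% (0.0152 to 0.0205) and 0.0129% (0.0103 to 0.0159). The GFP-AGO2 libraries were lower, but the intervals of GFP-AGO2 replicate 3 and Control replicate 3 overlap. The difference of -0.00655 percentage points had an exact two-sided permutation p = 0.333, and became -0.00297 points when GFP-AGO2 replicate 1 was left out, -0.0101 when GFP-AGO2 replicate 3 was, and -0.00417 when Control replicate 1 was. With let-7 5p arms left out of the denominator the groups overlapped, at 0.0103% and 0.0225% in GFP-AGO2 against 0.0288% and 0.0217% in Control. MiR-34c-5p gave 59.3% and 69.0% of the family's counts in GFP-AGO2, against 84.8% and 69.0% in Control.

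By share of the counts, some other cell type lists were lower in GFP-AGO2, like miR-34c-5p, and others were higher. The list of vessel, blood and immune miRNAs took 0.0366% and 0.171% of the counts in GFP-AGO2 replicates 1 and 3, against 0.496% and 0.366% in Control replicates 1 and 3. From lowest to highest, the 4 libraries stood in the same order in this list's sum as in miR-34c-5p. Of the tested names in the list, miR-143-3p and miR-146a-5p had this order, and miR-145a-3p, miR-451a, miR-150-5p and miR-155-5p did not. MiR-34a-5p had this order on TMM-scaled CPM but not on total counts, the scale of the list shares. Both GFP-AGO2 libraries lay below both Control libraries, as this order requires, in 35.2% of all tested names. How many of them have the whole order was not counted, so sharing it is no evidence of a link. Among the 11 of its names with a count, 6 were tested, of which 4 fell and none rose, with a median log2 fold change of -2.34, where the median of all tested names was -0.01. Its names miR-126a-3p, miR-126a-5p, miR-486-5p and miR-142-3p were at 0 in each library. Whether the counting, done with no strand option, left reads of these names unassigned was not tested, so 0 need not mean absence. Of the 14 epithelial and olfactory sensory names, 13 were tested and all 13 fell, with a median of -2.83. By share of the counts, this list and the p53-induced list had that same order of libraries. The epithelial shares of Control replicates 1 and 3 were close, at 23.9% and 23.4%. On TMM-scaled CPM the list's most abundant name, miR-183-5p, was higher in Control replicate 3 (104085 CPM) than in Control replicate 1 (101031 CPM). Some other names of the list went the other way. The part of these cells in the miR-34c-5p values was not tested. In the choroid plexus list, an epithelium beside the ependyma, 1 of 3 tested names rose, miR-204-5p, with 5381 and 6040 CPM in GFP-AGO2 against 3526 and 3298 CPM in Control (log2 fold change 0.74, SE 0.14, edgeR adjusted p = 0.0118). Of the 16 tested neuron-enriched names 2 rose and 1 fell, with a median of 0.16. Among p53-induced miRNAs outside the family, none of 4 tested names was called, with a median of 0.20. Their summed share was nonetheless 0.196% and 0.326% in GFP-AGO2, against 0.55% and 0.4% in Control. This list shares miR-145a-5p and miR-143-3p with the vessel list, and miR-143-3p had 267 and 1325 CPM in GFP-AGO2 against 4438 and 3350 CPM in Control. Of the tested names in the p53-induced list, miR-143-3p had the library order of miR-34c-5p, and miR-192-5p, miR-194-5p and miR-107-3p did not.

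The 3 names whose pattern over the 4 libraries was most like that of miR-34c-5p were sought among 240 tested names with a mean of at least 50 CPM, by the root mean square difference of centred log2 CPM. They were miR-1a-3p (0.074), miR-148a-3p (0.111) and miR-199a-3p (0.349), against a median of 0.932 over the candidates. MiR-1a-3p had 20.9 and 51.5 CPM in GFP-AGO2 replicates 1 and 3, against 116 and 75.9 CPM in Control replicates 1 and 3. MiR-148a-3p had 317 and 884 CPM in GFP-AGO2, against 1804 and 1304 CPM in Control. Like miR-34c-5p, both had their lowest value in GFP-AGO2 replicate 1 and their highest in Control replicate 1, which follows from choosing them by pattern. For miR-34a-5p the nearest were miR-148a-3p (0.193), miR-1a-3p (0.244) and miR-203-3p (0.473). Only miR-199a-3p of these names was called lower, with a log2 fold change of -1.68. MiR-1a-3p and miR-199a-3p have several genomic positions, so their origin is uncertain.

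**Figure D4:**
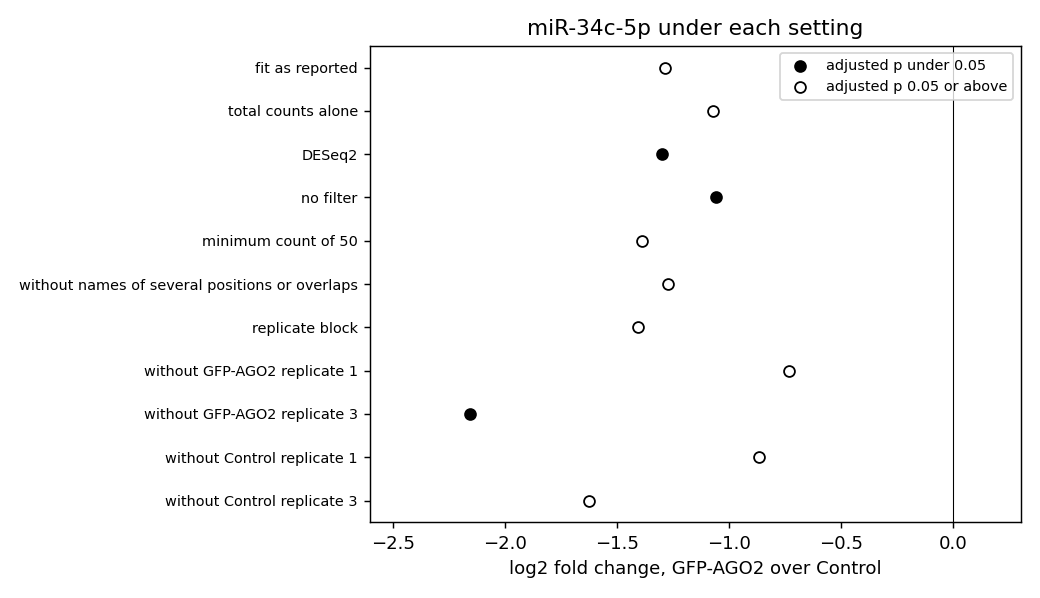
Log2 fold change of miR-34c-5p, GFP-AGO2 over Control (horizontal axis), as reported and under each alternative; filled points have an adjusted p under 0.05. The values lie between -2.15 (GFP-AGO2 replicate 3 left out) and -0.74 (GFP-AGO2 replicate 1 left out), and every setting keeps the sign.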

How the data were processed

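The authors deposited raw counts per mature miRNA name. Per the file headers, they were made with featureCounts 1.4.6-p1 on primary alignments over a miRBase annotation for mm10, with no strand option, so reads from either strand of a locus were counted together. The submitters' processing notes also name cutadapt and STAR, with no version. Columns were matched to samples by title. Libraries of a group were not copies of each other (chi-square 47711 on 475 degrees of freedom for GFP-AGO2 and 4564 on 383 for Control).

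In edgeR 4.0.16, run in R 4.3.3, counts were given a two-sided quasi-likelihood F test with TMM scaling, filterByExpr (minimum count 10, leaving 457 of 1900 names and 3 of 7 members) and Benjamini-Hochberg adjustment over all names tested. The procedure was tested on simulated data. The simulation gave every name the same dispersion, a measure of spread between libraries, so it does not bear on the members' own spread. DESeq2 1.42.0 was an alternative. The SE of a log2 fold change was its size divided by the square root of F. Shares were compared by exact permutation, with intervals from scipy 1.17.1. RefSeq mature sequences matched 1603 of the 1900 names. The named miRNAs were all members, the remaining miR-449 arms, the 3 names most alike in pattern to the leading member of Mir34a and of Mir34b/c, and from each list only names a result needed. Members and lists were chosen with earlier results of these data known. Alternatives covered scaling, tool, filter, ambiguous names, denominators, the replicate block and leaving out each library.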

Additional observations from a re-analysis of the deposited data

How the results depend on the processing

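Of the fitted changes, that of miR-34c-5p alone crossed the threshold: 1 member was called lower with DESeq2 (-1.30), with no filter (-1.06) and without GFP-AGO2 replicate 3, against 0 as reported; the cause was not tested. Leaving out 1 library gave -2.15 to -0.74 for miR-34c-5p, -2.83 to -0.41 for miR-34a-5p and 0.35 to 1.34 for miR-34b-3p; the remaining library of the reduced group is assumed to vary like the other group. The 5p share of miR-34b ran between -7.14 and 13.5 points and changed sign. Over all names, leaving out 1 library gave 47 to 94 called higher and 43 to 106 lower, against 79 and 78. Total counts alone moved the median of all names by 0.215 (log2) and gave 100 higher and 66 lower, with miR-34c-5p at -1.07, miR-34a-5p at -1.003 and miR-34b-3p at 1.13, none called. Taking the denominator without miR-200 family and miR-183 cluster names, the family share stayed lower in GFP-AGO2, at 0.0053% and 0.013% against 0.0232% and 0.0169% in Control. No filter gave 118 higher and 84 lower. A minimum count of 50 left miR-34c-5p alone (-1.39, adjusted p = 0.0892). The libraries share only a replicate number (correlation of deviations -0.061), and with the replicate block 79 names were called higher and 85 lower, miR-34c-5p having -1.41 (adjusted p = 0.0514). Depth limits all members but miR-34c-5p.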
